A study of Mus musculus with 40 samples.

Results

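HE2 and HP are the stages on either side of the endothelial to hematopoietic transition in a differentiation culture of mouse HM-1 embryonic stem cells, a line of strain 129/ola whose Hprt gene does not work until a reporter cassette repairs it on integration. Open-chromatin fragments of 5 stages had been cloned before a minimal Hsp68 promoter and a Venus-YFP gene, so that each cell tested a fragment at the Hprt locus. Per the study's methods, HE2 (hemogenic endothelium 2) was sorted as KIT+ TIE2+ CD41+ and HP (hematopoietic progenitors) as KIT+ TIE2- CD41+, both from a culture with serum. Each stage was then divided into a Negative, a Low, a Medium and a High gate of YFP, in 2 replicates, and the methods describe a transfection for each experiment. The word sort is used here for a stage of a replicate, and a fragment is called positive where any of the 3 YFP gates above the Negative gate held it. The comparison described here took positive fragments of HP against those of HE2 within each replicate. It held 112811 different fragments in 26049 regions, of 354627 fragments and 75060 regions in all 40 libraries, where a region is a run of overlapping fragments from any library. The data are DNA fragments, so surface markers or RNA of the sorted cells could not be checked here. Both groups share the ES line, the integration site and the promoter.

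In this transition, adherent endothelial cells that express endothelial receptors such as KDR and TIE2 round up and become free blood progenitors. The factor RUNX1 is needed for it. With its targets GFI1 and GFI1B it turns down endothelial genes, while PU.1, the product of Spi1, takes up the myeloid program. Enhancers are distal stretches of DNA that such factors bind through short motifs, and a reporter asks whether a fragment is enough to switch on a gene in these cells.

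The HE2 sorts held 68427 positive fragments in 17562 regions in replicate 1 and 3471 in 3078 regions in replicate 2. The HP sorts held 39671 in 13314 regions and 5208 in 4364 regions. Replicate 2 was thus the shallower by far, and most tests below rest on replicate 1. The replicates also held different parts of the genome. With 3471 fragments drawn from each set, HE2 and HP of 1 replicate shared 13.2% and 12.4% of regions, while the sorts of different replicates shared 2.33% to 2.78%, also at the same stage. The HP sort of replicate 1 stood apart in that none of its fragments occurred in 2 gates. In the other 3 sorts the gates shared between 2.81% and 47.0% of the smaller library. Of the positive HE2 fragments of replicate 2, 37.1% were also in the Negative gate, against 1.14% in replicate 1. Among positive HP fragments of replicate 2 it was 19.1%.

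The stretches below come from regions that are described in what follows. They are the 200 bp with most positive coverage in the 5 regions that passed the test and in the richest regions of Runx1, Spi1 and Kdr. Those of Runx1, Spi1 and Kdr did not pass it. Sequences are the plus strand of GRCm38 (mm10), 5' to 3'. Capitals mark matches, on either strand, to any of 14 motifs that were searched. The RUNX motif was written as TGTGGT, the letters that RUNX1 and its partner bind. For AP-1, the dimer of FOS and JUN proteins, the letters were TGANTCA. Factors of the ETS family were searched as CNGGAAGT, and PU.1, a member of that family, as GAGGAAGT. For the GATA factors of blood and endothelium they were AGATAAG. The TEAD factors of the Hippo pathway had GGAATG. SOX factors had ACAATGG in one form, and ACAAAGG was searched as another form. The octamer of OCT factors was ATGCAAAT. E-box proteins such as TAL1 were searched by CAGCTG, and RBPJ, through which Notch acts, by TGGGAA. For CEBP factors of myeloid cells the letters were TTGCNNAA, and for CREB they were TGACGTCA. GFI1 and CTCF had their consensus motifs. The TEAD and RBPJ motifs can overlap, as can PU.1 and ETS.
Upstream of Kdm6b, higher at HP, chr11:69418795-69418994: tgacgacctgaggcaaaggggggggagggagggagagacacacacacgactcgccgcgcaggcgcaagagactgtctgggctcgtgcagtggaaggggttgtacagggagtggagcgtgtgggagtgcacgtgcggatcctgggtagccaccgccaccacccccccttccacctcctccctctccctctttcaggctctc
Intron of Ywhaz, higher at HP, chr15:36792432-36792631: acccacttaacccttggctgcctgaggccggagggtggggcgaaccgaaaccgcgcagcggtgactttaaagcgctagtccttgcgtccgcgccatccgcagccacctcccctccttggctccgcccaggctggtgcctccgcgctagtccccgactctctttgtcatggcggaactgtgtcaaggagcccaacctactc
Upstream of Utrn, higher at HP, chr10:12868202-12868401: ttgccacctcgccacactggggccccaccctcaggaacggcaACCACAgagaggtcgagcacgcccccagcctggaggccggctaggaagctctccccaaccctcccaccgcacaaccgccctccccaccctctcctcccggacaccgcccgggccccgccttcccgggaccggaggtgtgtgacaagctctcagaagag
Intron near Phf19, lower at HP, chr2:34905114-34905313: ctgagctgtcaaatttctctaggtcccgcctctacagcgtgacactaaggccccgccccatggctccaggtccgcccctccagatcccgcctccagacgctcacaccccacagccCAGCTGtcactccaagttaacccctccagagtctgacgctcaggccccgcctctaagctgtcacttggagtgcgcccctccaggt
Far upstream of Cryz, lower at HP, chr3:154477557-154477756: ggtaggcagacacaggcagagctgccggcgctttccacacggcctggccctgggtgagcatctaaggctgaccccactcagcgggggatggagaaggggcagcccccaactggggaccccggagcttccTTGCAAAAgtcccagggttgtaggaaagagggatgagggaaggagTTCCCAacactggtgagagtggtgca
Runx1 intron, chr16:92822221-92822420: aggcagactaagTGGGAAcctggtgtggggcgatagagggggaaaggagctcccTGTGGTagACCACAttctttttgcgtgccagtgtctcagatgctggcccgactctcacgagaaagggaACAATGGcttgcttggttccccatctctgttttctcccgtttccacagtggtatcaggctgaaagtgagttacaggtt
Spi1 intron, chr2:91083004-91083203: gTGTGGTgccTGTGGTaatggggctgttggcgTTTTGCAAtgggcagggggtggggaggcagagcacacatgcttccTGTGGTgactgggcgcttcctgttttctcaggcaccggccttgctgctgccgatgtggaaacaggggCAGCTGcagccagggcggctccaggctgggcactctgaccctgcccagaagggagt
Kdr intron, chr5:75962278-75962477: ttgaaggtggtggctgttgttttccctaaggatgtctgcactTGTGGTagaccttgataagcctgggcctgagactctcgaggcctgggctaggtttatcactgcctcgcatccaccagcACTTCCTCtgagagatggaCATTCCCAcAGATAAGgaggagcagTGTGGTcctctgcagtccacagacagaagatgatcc
In the 200 bp at the centre of all 75043 regions on assembled chromosomes, a RUNX match was found in 16.5%, RBPJ in 19.9%, EBOX in 13.9%, TEAD in 13.0%, AP-1 in 9.27%, SOX in 8.51%, CEBP in 7.59%, ETS in 5.45%, GATA in 4.11%, PU.1 in 2.50%, CTCF in 2.01%, OCT in 1.08%, CREB in 0.296% and GFI1 in 0.135%. The stretches of Runx1, Spi1 and Kdr held 2, 3 and 2 RUNX matches, and that of Utrn held 1. Those of Kdm6b and Ywhaz held no match to these letters. The 5 stretches outside the named loci were 62.5% to 70.0% GC, while those of Runx1 and Kdr were 53.0% and that of Spi1 was 63.5%.

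The first question was how much of the active set was gained, lost and kept. In replicate 1, with 39671 positive fragments drawn from each stage (mean of 20 draws), 8976 regions were positive at both stages, 5605 at HE2 and not HP, and 4338 at HP and not HE2. The kept regions were 47.4% of those seen at either stage. In replicate 2, with 3471 fragments a side, 676 were kept, 2402 lost and 2368 gained, which put the kept share at 12.4%. The mean of the replicates was 29.9% ± 24.8 (SD, n = 2). These shares were taken at unequal depths, and with 3471 fragments a side in both replicates they were 13.2% and 12.4%. With 2 replicates no exact test can go below p = 0.5, so the shares are given as values. At one depth over all steps of the culture, replicate 1 kept 36.1% from ES cells to hemangioblast-like cells (HB), 33.0% from HB to hemogenic endothelium 1 (HE1), 47.4% from HE1 to HE2 and 42.5% from HE2 to HP. In replicate 2 the HE2 to HP step had the highest share of the 4 steps (12.4%, against 4.39% to 5.68%).

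The Negative gate gave the background for this turnover. At a common depth of 8430 fragments, positive regions of replicate 1 were kept in 24.1% and Negative regions in 24.7%, a difference of -0.603 percentage points. In replicate 2, at 2727 fragments, the values were 9.93% and 6.18%, a difference of 3.74 points. The mean difference was 1.57 ± 3.07 points (SD, n = 2). The difference between fragments with and without reporter signal thus had opposite signs in the replicates.

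**Figure D1:**
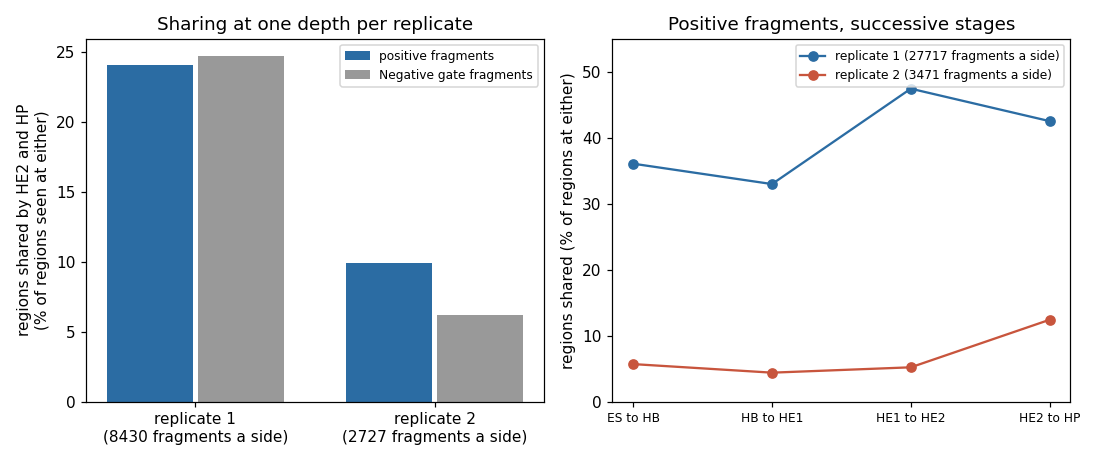
Left, the share of regions seen at either stage that both HE2 and HP held, for positive fragments (blue bars) and Negative gate fragments (grey bars) of each replicate, drawn to the same number of fragments. Right, the same share for positive fragments over the successive stages, in % of regions at either stage. Blue and grey bars of replicate 1 differ by 0.603 points, and replicate 2 was drawn to 3471 fragments a side in the right panel against 27717 in replicate 1, so that levels compare between steps and not between replicates.

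Regions moved between classes from one replicate to the other. Of the regions that were lost in replicate 2 and seen in replicate 1, 71.0% were kept in replicate 1 and 22.0% were lost. Of those gained in replicate 2, 70.4% were kept in replicate 1, 22.6% were lost and 6.98% were gained. In all, at full depth, 75 regions were lost in both replicates, 37 were gained in both, while 120 were lost in replicate 1 and gained in replicate 2 and 24 the other way round. Over all regions at full depth, replicate 1 had 10253 kept (49.7%), 7309 lost and 3061 gained. Replicate 2 had 950 kept (14.6%), 2128 lost and 3414 gained. HE2 was the deeper stage in replicate 1 and HP in replicate 2, and the part of depth in these counts was not tested.

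The regions positive at both stages in both replicates numbered 152, with a median of 16 positive fragments. Among the richest were those near Zfp958, Zmiz2, Chd2 and Zfp169. Chd2 encodes a chromatin remodeller, and Zfp169 and Zfp958 encode zinc finger proteins. The region of Chd2 held 37 at HE2 and 24 at HP in replicate 1, and 1 at each stage in replicate 2. The region near Zfp169 held 32 at HE2 and 25 at HP in replicate 1, and 2 and 3 in replicate 2. Per 10000 fragments of replicate 1 these were 1.12-fold and 1.35-fold higher at HP, which did not pass the Cochran-Mantel-Haenszel test (adjusted p = 1.00 for each). Those near Zfp958 (57 at HE2 and 19 at HP in replicate 1, 1 at each in replicate 2) and Zmiz2 (55 and 17 in replicate 1, 3 and 1 in replicate 2) were lower per 10000 at HP in replicate 1 by 1.74-fold and 1.88-fold, with adjusted p = 0.665 and 0.505.

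How far a region's absence could be read as a loss depended on coverage. In replicate 1, 62.7% of the regions with a single positive HE2 fragment had none at HP, against 8.93% of those with 10 to 19 and 5.22% (12 of 230) of those with at least 20. Each of the 12 had fragments in the HE2 Negative gate of replicate 1, and none had a fragment in the HP Negative gate, where 94.0% of the other 218 regions had one. In replicate 2, 6 of the 12 had Negative fragments and 3 had positive fragments at HP. The regions emptiest of activity at HP in replicate 1 were therefore absent from all its 4 gates. The methods describe keeping fragments that lie in an ATAC peak of the same stage, and whether that step made these lists is not stated. Loss of reporter activity and absence from the list or from the sorted cells cannot be told apart for them. In the other direction, 4 regions of replicate 1 had 10 to 19 positive HP fragments and none at HE2. Of these, 0 had a fragment in the HE2 Negative gate of replicate 1. Gain of activity and earlier absence from the list or cells cannot be told apart for those either.

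For each region with at least 10 positive fragments in the 4 sorts, the share at HP was tested against that at HE2 with the replicates as strata. Of 2962 regions tested, 5 passed an adjusted p of 0.05, which is 0.169%, and 3 of them were higher at HP (0.101%) and 2 lower (0.0675%). At an unadjusted p of 0.05, 200 regions (6.75%) passed, 82 higher (2.77%) and 118 lower (3.98%). Of the 487 tested regions with positive fragments in both replicates, 249 (51.1%) had the same direction in each. The unit of the test is the fragment, so where 1 replicate held the fragments it compares those libraries.

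The 3 regions that were higher at HP lay near genes of chromatin, signalling and the cytoskeleton. Kdm6b encodes a demethylase of histone H3 lysine 27. The region 2769 bp upstream of it (chr11:69418517-69419409) held no positive fragment in either HE2 sort, 19 in the HP sort of replicate 1 and 1 in that of replicate 2. In replicate 1 this was at least 10.9-fold higher at HP, with a floor of 3 fragments for the empty sort (adjusted p = 6.0e-05). The 19 were spread over the Low (7), Medium (4) and High (8) gates. Its Negative gate held 0 fragments at HE2 and 6 at HP in replicate 1, on the same side as the positive ones. In replicate 2 it held 1 and 2, or 3.67 and 1.34 per 10000 fragments of that gate, on the other side. Without the Low gate the region did not pass (adjusted p = 0.0918).

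Ywhaz encodes a 14-3-3 protein, an adaptor that binds phosphorylated proteins. The region in its intron (chr15:36792313-36793128) held 0 positive fragments at HE2 in both replicates and 19 and 0 at HP (at least 10.9-fold in replicate 1, adjusted p = 6.0e-05). Of the 19, 13 came from the Medium gate, and without that gate the region had too few fragments to be tested. By limma over the 4 sorts with the replicate block its adjusted p was 0.922, as for the regions near Kdm6b and Utrn. This region was not new at HP, since replicate 1 had 9 positive fragments there in ES cells, 14 at HB and 30 at HE1. It was empty at HE2 in the Negative gate as well. Utrn encodes utrophin, which links actin to the cell membrane. The region 6438 bp upstream (chr10:12867631-12868715) held 0 and 0 at HE2 and 15 and 0 at HP (at least 8.62-fold, adjusted p = 0.0011), with 12 at HB and 0 at ES and HE1 in replicate 1. Of the 15, 9 came from the High gate, and without the Low gate the region did not pass (adjusted p = 0.0907). Its Negative gates held 0 and 0 fragments at HE2 and 0 and 1 at HP. The next regions in this direction lay near Zfp184, Zfp324, Rmnd5b, Huwe1 and Pld6, with 0 to 6 fragments at HE2 and 10 to 16 at HP in replicate 1 and adjusted p of 0.0645 to 0.211.

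Of the 2 regions that were lower at HP, the intronic one near Phf19 was the richest. Phf19 encodes a partner of Polycomb repressive complex 2, which sets the mark that the Kdm6b product removes. The region (chr2:34904620-34905546) held 47 positive fragments at HE2 and 0 at HP in replicate 1, and 0 and 1 in replicate 2. That was at least 9.08-fold lower in replicate 1 (adjusted p = 0.00097), while the single fragment of replicate 2 lay on the HP side. In replicate 1 it also had 50 positive fragments in ES cells, 0 at HB and 92 at HE1, and 6 Negative fragments at HE2 and 0 at HP. It did not pass without the Medium gate (adjusted p = 0.0582) or without the High gate (0.183). The region 118993 bp upstream of Cryz (chr3:154477557-154477878) rested on replicate 2 alone, with 13 positive fragments at HE2, all in the Medium gate, and 0 at HP (at least 6.50-fold, adjusted p = 0.0209). Its Negative gate of replicate 2 held 11 fragments at HE2 and 17 at HP, which is 40.3 and 11.4 per 10000 fragments of that gate and thus also lower at HP. This region did not pass with no replicate block (adjusted p = 0.149), with at least 5 fragments (0.0559), without the High gate (0.146), relative to the Negative gate (0.779) or by limma (0.922 with the replicate block). With near-identical fragments collapsed, or without fragments also in the Negative gate, it had too few fragments to be tested.

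A run of further regions had 23 to 25 positive fragments at HE2 in replicate 1 and none at HP, with adjusted p of 0.0933 to 0.144. They lay near Egfl7, an endothelial secreted factor, and near Glis2, Cttnbp2nl, Trappc9, Cln6 and Gas2l1. The region near Egfl7 (chr2:26575578-26576704) held 24 and 1 at HE2 and 0 and 0 at HP. In replicate 1 it had 31 at HE1 and 0 at ES and HB. None of the 6 had a Negative fragment at HP in replicate 1, and 3 had 1 to 4 in replicate 2. When the change in positive fragments was set against the change in the Negative gate in a Poisson model, no region passed (0 of 2962, with 143 at an unadjusted p of 0.05), and for the regions of Ywhaz, Utrn and Phf19 the Negative counts gave no estimate of the ratio.

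**Figure D2:**
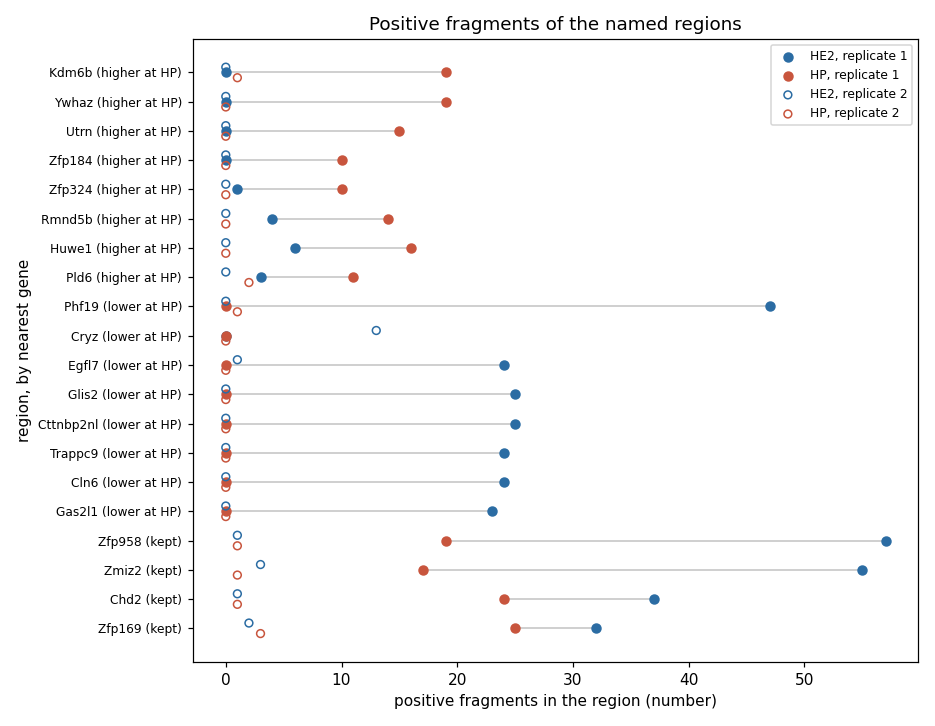
Number of positive fragments in each named region (rows, by nearest gene, with the direction of the change or kept) at HE2 (blue) and HP (red), filled points for replicate 1 and open points for replicate 2. The regions higher at HP have 10 to 19 fragments at HP in replicate 1, and the open points lie at 0 to 3 except the HE2 point of Cryz at 13.

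Fragments were then summed by the nearest protein-coding start within 100000 bp. Of 3308 genes tested, 1 passed (0.0302%), Phf19, with the region above as its whole signal (47 and 0 fragments at HE2, 0 and 1 at HP, adjusted p = 0.0032). No gene passed in the other direction by the same test (0.0% of 3308), where limma over the 4 sorts gave none either and 98 genes (2.96%) higher at HP had an unadjusted p under 0.05, against 127 (3.84%) lower at HP and 225 (6.80%) in all. Of 1581 genes with positive fragments in both replicates, 778 (49.2%) had the same direction in each.

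Kdr, the main receptor for VEGF on endothelium, was among the 10 genes of lowest p on the side of HE2. It held 49 positive fragments at HE2 and 6 at HP in replicate 1, and 0 and 2 in replicate 2. In replicate 1 this was 7.16 and 1.51 per 10000 positive fragments, 4.73-fold lower at HP, while replicate 2 pointed the other way. Its Negative fragments, summed over its regions, numbered 3 at HE2 and 5 at HP in replicate 1. Within the gene or 25000 bp of it, replicate 1 had 5 positive regions at HE2 and 2 at HP, with 1 in common. Whether the regions without positive fragments at HP were still sampled there was not tested. Kdr did not pass over both replicates (adjusted p = 0.144) and passed in replicate 1 alone by Fisher's exact test (adjusted p = 0.011). The richest of its regions, in an intron (chr5:75962049-75962902), held 17 at HE2 and 3 at HP in replicate 1, and 0 and 1 in replicate 2, with adjusted p = 0.956. It is the one printed above with RUNX, GATA, PU.1 and TEAD matches.

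The other genes of lowest p on the side of HE2 were Gng7, Actg1, Dnajb12, Azin1, Glis2, Cln6, Rbx1 and Igfbp3. Actg1, which encodes cytoplasmic gamma-actin, held 46 and 0 fragments at HE2 in replicates 1 and 2, against 3 and 2 at HP. In the same order of replicates, Igfbp3, an insulin-like growth factor binding protein, held 23 and 0 at HE2 against 0 and 0 at HP, and other genes are given in this way below. Gng7, a G protein subunit, held 28 and 1 against 0 and 0. Their adjusted p ran from 0.0781 to 0.149. The genes with the lowest p in the other direction were Zfp184, Rmnd5b, Thumpd3, Il17b, Huwe1, Pld6, Zfp518a, Rmi2, Hdgfl2 and Txnrd3, with adjusted p of 0.144 to 0.250. Zfp184 held 11 and 0 fragments at HE2 and 23 and 0 at HP. Il17b held 19 and 0 against 29 and 1, and Rmi2, a member of the complex that resolves DNA crossovers, 13 and 0 against 22 and 1. None of these 10 was on the blood gene lists read below.

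The loci of 18 factors and receptors of this transition were followed within the gene or 25000 bp of it. None passed after adjustment over the 5316 genes tested in this way (0.113% of them passed). Among the endothelial receptors and junction genes, the levels in replicate 1 were lower at HP without passing the test. Kdr held 29 fragments at HE2 and 4 at HP, or 4.24 and 1.01 per 10000 (adjusted p = 0.501). Tek, which encodes TIE2, held 13 at HE2 and 2 at HP (adjusted p = 0.845), and Cdh5, which encodes VE-cadherin, 29 at HE2 and 8 at HP (adjusted p = 0.793). In replicate 2 these loci had 0 fragments each, except 1 at HP in Kdr. The same 3 loci had their highest levels of the 5 stages at HE2 in replicate 1, with 1.37 per 10000 for Tek, 3.43 for Kdr and 3.63 for Cdh5 at HE1.

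Runx1 held 32 and 5 positive fragments at HE2 and 10 and 2 at HP, which was lower at HP in both replicates by 1.86-fold and 3.75-fold (unadjusted p = 0.0354, adjusted p = 0.676 by the Cochran-Mantel-Haenszel test). All 4 of its regions positive at HP in replicate 1 were also positive at HE2, where there were 7. The richest, 3654 bp from a start (chr16:92822070-92822770), held 11 and 0 against 5 and 0, and lies in an intron. Spi1 went the other way, with 15 and 0 at HE2 and 18 and 1 at HP, or 2.19 and 4.54 per 10000 in replicate 1 (2.07-fold, unadjusted p = 0.0395, adjusted p = 0.694). Its richest region, in an intron 583 bp from a start (chr2:91082606-91083370), held 4 and 0 against 11 and 0 (adjusted p = 0.424), with 1 and 3 Negative fragments in replicate 1. Itga2b, which encodes CD41, held 30 and 1 against 29 and 0, 1.67-fold higher per 10000 at HP in replicate 1 (adjusted p = 0.832).

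Of the other factors, some differed by little per 10000 fragments and some held few fragments. Tal1, which starts the blood program upstream of RUNX1, held 26 and 0 against 13 and 0, Gata2 28 and 1 against 17 and 1, Notch1 39 and 0 against 21 and 0, Meis1 51 and 0 against 32 and 1, and Tead1 47 and 1 against 29 and 0. Per 10000 fragments of replicate 1 these were within 1.16-fold of each other. Gfi1b held 8 fragments at each stage, Gfi1 2 at each stage, Myb 6 at HE2 and 4 at HP, and Kit 3 at HE2 and 1 at HP in replicate 1, too few to show a change at this depth. Per 10000 fragments, Gfi1b and Gfi1 were each 1.72-fold and Myb 1.15-fold higher at HP, and Kit was 1.74-fold lower. Sox7 held 12 at HE2 and 9 at HP in replicate 1, and Dlk1 5 and 6. Per 10000 fragments these were 1.29-fold and 2.07-fold higher at HP (unadjusted p = 0.719 and 0.360 by the Cochran-Mantel-Haenszel test). Sox17 held none at either stage within this distance. By nearest start within 100000 bp Sox17 had enough positive fragments to be tested. Its log2 ratio was then -0.44 (unadjusted p = 0.574 by the Cochran-Mantel-Haenszel test).

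**Figure D3:**
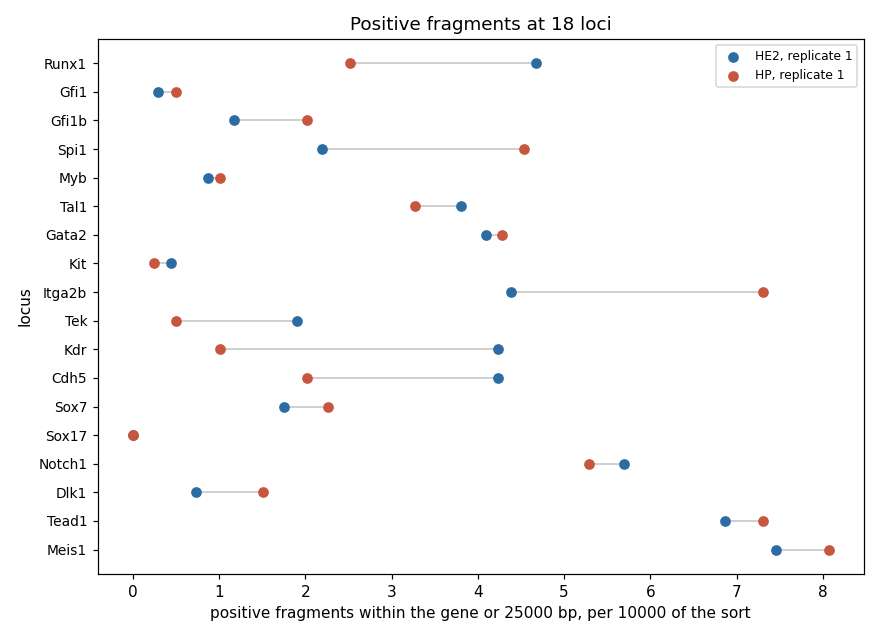
Positive fragments within each gene or 25000 bp of it, per 10000 positive fragments of the sort, at HE2 (blue) and HP (red) of replicate 1. Kdr, Tek and Cdh5 lie lower at HP (Kdr 4.24 against 1.01) and Spi1 and Itga2b higher (Spi1 2.19 against 4.54). No locus passed the test over genes.

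Lists of genes were read the same way, by nearest start, and no list held a gene that passed. Over the 3308 genes tested the median log2 ratio of HP to HE2 was 0.05, and 52.4% of the ratios were positive. An unadjusted p under 0.05 was found for 3.84% of them lower at HP and 2.96% higher. Of 30 endothelial genes 28 had positive fragments and 22 were tested. Their median was -0.36, 5 of the 22 ratios were positive (22.7%), and Kdr and Aplnr had unadjusted p under 0.05, both lower. Aplnr, the apelin receptor of endothelium, held 17 and 0 against 0 and 0, at least 3.29-fold lower in replicate 1 (adjusted p = 0.303), with 1 Negative fragment at HE2 and 0 at HP. Ets1 held 79 and 1 against 30 and 3, Egfl7 72 and 1 against 32 and 3, and Nrp2 47 and 0 against 29 and 0. Per 10000 fragments of replicate 1, Ets1 and Egfl7 were 1.53-fold and 1.30-fold lower at HP and Nrp2 1.06-fold higher. Summed over the list, replicate 1 went from 80.5 to 56.5 per 10000 positive fragments and replicate 2 from 40.3 to 59.5, while the Negative gate went from 80.7 to 69.8 and from 44.0 to 34.1. The 2 replicates differed in direction.

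The list of basement membrane and focal adhesion genes had the lowest median, -0.93 over 13 tested genes of 23. Hspg2, Col4a2 and Itga5 had unadjusted p under 0.05, all lower at HP, as had 3.84% of all genes tested. Col4a2, a chain of type IV collagen, held 31 and 0 against 5 and 0 (adjusted p = 0.367). Itga5, the integrin that binds fibronectin, held 21 and 2 against 3 and 0 (adjusted p = 0.381), and Hspg2, which encodes perlecan, 47 and 0 against 13 and 0 (adjusted p = 0.570). Sparc, a matrix protein of the same list, held 44 and 0 against 34 and 0, which was 1.33-fold higher per 10000 at HP. The sum over the list was 48.1 and 31.5 per 10000 in replicate 1, with 27 and 18 fragments in the Negative gate, and 11.5 and 15.4 in replicate 2.

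Among 25 hematopoietic transcription factors 17 were tested, with a median of 0.18 and 10 positive ratios. Runx1 (52 and 5 against 19 and 2) and Irf8 (52 and 1 against 14 and 1), an interferon regulatory factor of myeloid cells, had unadjusted p under 0.05, lower at HP, with adjusted p = 0.662 and 0.478. Over all genes tested, 3.84% were lower at that threshold. Zfpm1 held 56 and 1 against 27 and 1. Of 25 blood surface and signalling genes 10 were tested, none below 0.05 unadjusted, with a median of 0.08. Cd34 held 18 and 0 against 14 and 0, and Vav1 36 and 0 against 23 and 0. Per 10000 fragments of replicate 1 they were 1.34-fold and 1.10-fold higher at HP. Of 19 genes of erythroid and myeloid output, 8 had positive fragments and only 2 had enough of them for the test. Whether the enhancers of the others were inactive or not sampled was not tested.

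The pathway lists lay near the median of all genes. The Notch list had a median of 0.30 over 12 genes, and Jag1, a Notch ligand, held 11 and 0 against 0 and 0 (adjusted p = 0.605). The Hippo and TEAD list had 0.14 over 9 genes, and Tead1 held 34 and 0 against 26 and 0, 1.32-fold higher per 10000 at HP in replicate 1. The AP-1 family had 0.12 over 7 genes. Fos, a subunit of AP-1, held 74 and 1 against 60 and 2 and was 1.40-fold higher per 10000 at HP in replicate 1 (adjusted p = 0.740), while Mafk, a small MAF protein, held 25 and 0 against 4 and 0 (adjusted p = 0.494). The TGF-beta and BMP list had -0.13 over 15 genes, where Smad6, an inhibitor of BMP signals, held 88 and 2 against 38 and 5. Of 15 pluripotency factors 6 were tested, with a median of 0.10, and Nanog held 4 and 0 against 10 and 0 (adjusted p = 0.483). Neuronal synapse genes served as an unrelated list. Of 25, 5 were tested, with a median of -0.55 and 20.0% positive ratios. The endothelial list had -0.36 and 22.7%, so the unrelated list lay lower. Dlg4, a synaptic scaffold, held 30 and 2 against 3 and 1 (adjusted p = 0.191), or 4.38 and 0.756 per 10000 in replicate 1.

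The sequence of the regions gained and lost differed in replicate 1. In the central 200 bp, AP-1 matches were found in 9.52% of gained, 12.1% of kept and 17.8% of lost regions. SOX matches were found in 6.31% of gained and 12.1% of lost regions, and TEAD matches in 11.8% and 16.4%. RUNX matches ran the other way, with 21.3% of gained and 17.0% of lost regions, as did CTCF with 6.17% and 2.58%. In replicate 2 gained and lost regions lay closer, at 7.49% and 8.17% for AP-1, 7.96% and 7.29% for SOX, 12.1% and 12.4% for TEAD, 15.6% and 15.8% for RUNX and 1.55% and 1.21% for CTCF.

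The Negative gate of replicate 1 showed most of the same differences. With 8430 fragments a side, gained minus lost was -4.91 percentage points for AP-1 among positive fragments and -4.58 among Negative fragments. For SOX it was -3.18 and -2.31, for TEAD -2.54 and -2.59, for RUNX 1.76 and 2.17, and for CTCF 2.69 and 1.48. The differences in these 5 motifs between gained and lost regions were therefore present, with the same sign, in fragments that gave no YFP. These shares were not tested, since each replicate gives 1 value.

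Matches per kb of fragment in the 12 positive libraries gave the comparison with replicates, as 6 pairs of the same gate and replicate. The 3 gates of a sort come from the same culture, so the pairs stand for 2 replicates and their p-values measure the spread between libraries. With the gates of a replicate united, the smallest exact p that 2 pairs allow is 0.5. An exact permutation test that exchanged the stages within pairs (two-sided, 64 arrangements, smallest p = 0.0312) left no motif of the 14 with an adjusted p under 0.25. AP-1 was 0.596 ± 0.173 at HE2 and 0.498 ± 0.116 at HP (SD, n = 6), a difference of -0.10 with 1 pair of 6 higher at HP (exact p = 0.0625, adjusted 0.250). In replicate 1 the mean over its 3 pairs was -0.15 and the Negative pair -0.17. In replicate 2 the mean was -0.046 and the Negative pair 0.0050. TEAD (-0.062, exact p = 0.125) and SOX (-0.043, exact p = 0.219) were lower at HP in the 3 pairs of replicate 1 and mixed in replicate 2. RUNX lay at 0.908 and 0.907 (exact p = 1.00).

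CTCF, a factor that shapes chromatin loops, was higher at HP in 6 of 6 pairs, at 0.157 ± 0.114 against 0.213 ± 0.158 matches per kb (difference 0.056, exact p = 0.0312, the smallest possible, adjusted p = 0.250 over the 14 motifs). With the gates united it was 0.067 over the 2 replicates (exact p = 0.5). The Negative gates gave -0.010 and -0.013. The highest value was that of the HP High gate of replicate 1, where 6.72% of fragments held a match (Wilson 95% interval 6.35% to 7.12%), against 5.56% in the Medium, 4.68% in the Low and 4.52% in the Negative gate. At HE2 the 4 gates of replicate 1 lay between 4.29% and 4.62%. In replicate 2 the shares were 1.05% in the Negative gate, 1.40% in Low, 1.53% in Medium and 2.00% in High at HP, and 1.16% to 1.53% at HE2, on 10 to 157 fragments with a match. Fragments with a match were short, with a median of 108 bp in the HP High gate of replicate 1, where all fragments had a median of 126 bp and those of the HE2 High gate 158 bp. Within fragments under 150 bp, the share with a match was 8.99% in the HP High gate and 6.83% in the HE2 High gate of replicate 1, and 6.40% and 5.90% in the Negative gates. Of the HP High fragments with a match in replicate 1, 89.0% lay in regions that were also positive at HE2.

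**Figure D4:**
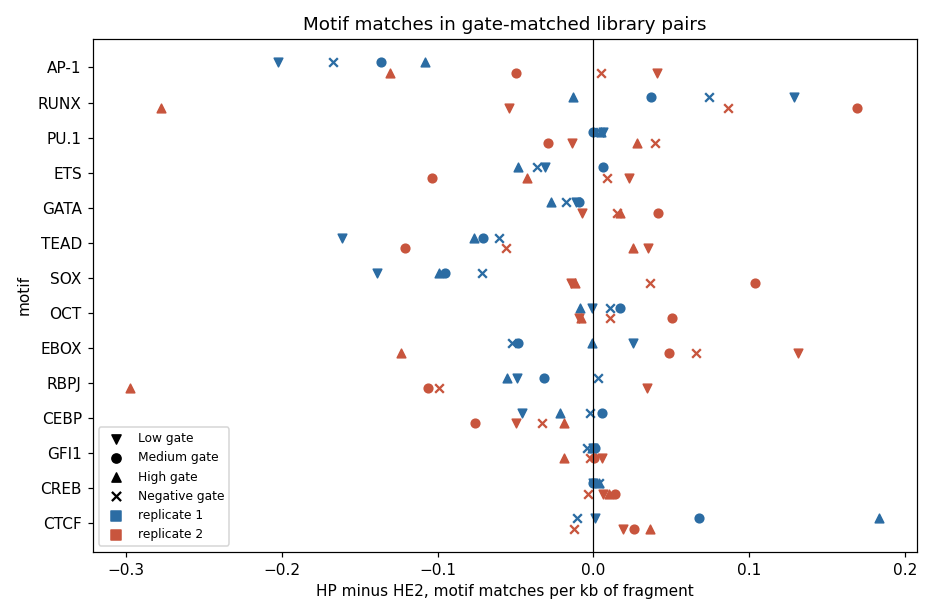
Difference in motif matches per kb of fragment between HP and HE2, for each gate (marker) and replicate (colour), with the Negative gate as crosses. The AP-1, TEAD and SOX points of replicate 1 lie below 0 in all 4 gates, and CTCF lies above 0 in the 6 positive pairs and below 0 in both Negative pairs.

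**Figure D5:**
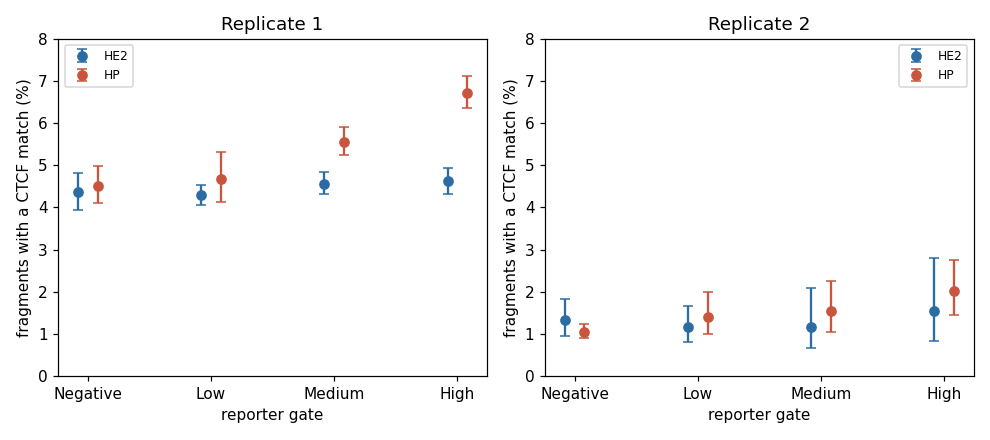
Share of fragments with a CTCF match by reporter gate at HE2 (blue) and HP (red) in each replicate, with Wilson 95% intervals. At HP in replicate 1 the share runs from 4.52% in the Negative to 6.72% in the High gate, while at HE2 the gates lie between 4.29% and 4.62%.

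Position and length were compared over the same pairs. In replicate 1, lost regions lay farther from a transcription start (median 30945 bp) than gained (22334 bp) and kept (21975 bp) ones, while in replicate 2 the medians were 26124, 30288 and 26991 bp. The share of fragments centred in introns was 46.5% ± 1.44 at HE2 and 45.3% ± 1.61 at HP (SD, n = 6), lower at HP in 6 of 6 pairs by 1.18 percentage points (exact permutation p = 0.0312). HP minus HE2 was -1.56 points with the 3 gates of each replicate united (exact p = 0.5, n = 2). The Negative gates were lower by 0.777 and 0.141. Median fragment length was 192 ± 36.6 bp at HE2 and 172 ± 26.6 bp at HP, shorter at HP in 5 of 6 pairs (exact p = 0.0938), and GC content 52.8% ± 2.49 and 53.1% ± 3.03 (exact p = 0.250).

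Last, fragments with the same ends at both stages show the same construct at both. In replicate 1, 2791 positive fragments were identical at HE2 and HP, 7.04% of the HP set (Wilson 95% interval 6.79% to 7.29%). In replicate 2 there were 1001, 28.8% of the HE2 set (27.4% to 30.4%). Between the Negative gates of HE2 and HP, identical fragments were 1.67% of the smaller library in replicate 1 and 47.5% in replicate 2. Of 2512 fragments of replicate 1 that were in 1 positive gate at each stage, 32.8% were in the same gate, 48.2% in a higher gate at HP and 18.9% in a lower one. With the Negative gate counted as the lowest, 1434 of 3284 fragments in 1 gate at each stage were higher at HP, 942 lower and 908 the same. Among these, 466 went from a positive gate to Negative and 222 from Negative to a positive gate. The gates differed in size in the same direction, since the HE2 gates held 27370 fragments in Low, 24871 in Medium and 18205 in High and the HP gates 4869, 18294 and 16508, and the part of gate size in this shift was not tested. Nor was that of the lists of the HP sort of replicate 1, whose gates shared no fragment. In replicate 2, 55.4% of 101 such fragments kept their gate, 22.8% were higher and 21.8% lower at HP. With the Negative gate counted, 111 of 552 were higher, 156 lower and 285 the same.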

How the data were processed

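The values the authors deposited are start and end coordinates of unique fragments (other than counts or scores), 1 list per library. Per the labels and methods, reads were trimmed with Trim Galore, aligned to mm10 with Bowtie2, filtered with SAMtools, and filtered and annotated with bedtools and HOMER. Versions for these libraries are not given in the sources used here. A fragment counts once however many reads it had, and PCR without molecular identifiers means that intervals and floors cover counting error only. Fragments were 66 to 599 bp long.

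Groups came from the library titles. The methods describe a transfection for each experiment, and replicate numbers were taken to pair the stages, as strata, because same-numbered sorts shared more regions (13.2% and 12.4% within against 2.33% to 2.78% across replicates at 3471 fragments). Starts, exons and introns came from curated RefSeq transcripts of GRCm38, and a fragment or region was placed by its centre. Sets were thinned with 20 draws. Regions and genes were tested with the Cochran-Mantel-Haenszel test with continuity correction and Benjamini-Hochberg adjustment, with a pseudocount of 0.5 fragments in log2 ratios. Library measures were tested by exact permutation. Alternatives included Fisher's exact test, limma 3.58.1 on log2 fragments per 10000 plus 0.5, and a Poisson model against the Negative gate. The tests were tested on simulated data. Named were the 8 regions and 10 genes of lowest adjusted p in each direction, 4 of the 5 richest kept regions (1 is not reported here), 18 loci, and from each list some of its 4 richest members. List members with an unadjusted p under 0.05 outside those 4 were named after their values were seen. Members, lists, motifs and tests were chosen with earlier results of these data known. Python 3.11.15, pandas 2.3.3 and scipy 1.17.1 were used. The p-values measure only the spread between these fragments or libraries, which may be technical.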

Additional observations from a re-analysis of the deposited data

Results flagged for a closer look

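CTCF matches per kb of fragment moved in opposite directions in the positive and the Negative libraries. By share of fragments with a match, the Negative gate of replicate 1 was not lower at HP (4.35% at HE2, 4.52% at HP). That of replicate 2 was lower (1.32% and 1.05%). Fragment length differed between these libraries, and its part was not tested. Per kb, CTCF matches were higher at HP in 6 of 6 positive pairs and lower in both Negative pairs. The mean change of the positive pairs exceeded that of the Negative pairs by 0.0671 matches per kb. This difference was not tested, and no motif passed after adjustment.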

How the results depend on the processing

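The number of regions that passed was 5, and 4 to 7 with at least 5 or 20 fragments, with near-identical fragments collapsed, without fragments also in the Negative gate or in 1000 bp bins (2 to 4 of the original 5 among them where features match). It was 20 with no replicate block (Fisher's exact test, 4 of the 5 among them), 2 to 22 when a replicate was left out (22 without replicate 2, of which 17 were lower at HP), 3 without the Low or the Medium gate, 2 without the High gate, 0 relative to the Negative gate and 0 by limma with the replicate block or without it (35 and 6 at an unadjusted p of 0.05). Regions that had a Negative fragment at both stages, a filter chosen after seeing the data, gave 3 of 1473, near Kdm6b, Phf19 and Cryz. The number of genes was 1, but 19 with no replicate block, 0 to 23 when a replicate was left out, 5 with at least 20 fragments, 6 with fragments in the gene body or within 25000 bp, and 0 without the Medium gate, without the High gate, relative to the Negative gate and by limma with or without the replicate block (50 and 4 unadjusted). The 6 features that passed kept their direction in 66 values under alternatives, and their call in 43 of them. The gene Phf19 and the region near it hold the same fragments and were counted as separate features here. The losses of single regions without a gate, and those of the region near Cryz, are given beside them in the results. Among the others, Actg1 (0.30) and Kdr (0.59) reversed under both limma fits, and Zfp518a (-0.15), Rmi2 (-0.045), Azin1 (0.050) and Rbx1 (0.25) reversed relative to the Negative gate. Features under an alternative's minimum, or whose Negative counts gave no ratio, have no value there.

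The kept share was 24.4% to 32.2% under the alternatives that keep both replicates, and 12.4% or 47.4% with 1 replicate, at unequal depths. Its difference from the Negative gate was 15.5 points with no thinning, -1.73 without fragments also in the Negative gate, and between -0.603 and 3.74 with 1 replicate. For the library measures, the intronic difference kept its sign at -1.17 without the Low, -1.25 without the Medium and -1.12 without the High gate, -1.56 with the replicate block on united gates, -0.459 in the Negative gate, and -1.32 to -1.05 with 1 replicate, designs whose smallest exact p is above 0.05. In the Negative gate the values were 0.022 for PU.1, -0.011 for CTCF and 8.0 bp for length. Differences near 0 changed sign. PU.1 gave 0.0010 without the Low gate, 0.0065 without the Medium gate, 0.0022 with fragments collapsed and 0.024 percent points in the central 66 bp. GATA gave -0.0071 without the Medium gate, -0.0017 with the replicate block, -0.0020 collapsed, -0.369 as percent of fragments and -0.192 in the centre. EBOX gave -0.031 without the Low gate, -1.37 as percent and -0.262 in the centre. RUNX gave 0.070 without the High gate, 0.0037 with the replicate block and 0.0042 collapsed, OCT -0.0067 without the Medium gate, and GFI1 0.0015 without the High gate and 0.016 in the centre. With 1 replicate left out RUNX ran from -0.054 to 0.051, PU.1 from -0.0047 to 0.0037, GATA from -0.016 to 0.017, SOX from -0.11 to 0.026, EBOX from -0.0079 to 0.019 and GC content from -0.152 to 0.824 points. The cause of these changes was not tested.

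Depth limits the results of replicate 2, where 7 regions and 11 genes reached 10 positive fragments.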
